A study of Sus scrofa with 12 samples.

Results

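The chemokine ligand and receptor genes of pig back fat are described here, 32 of the 24358 genes in the deposited table, of which 18 encode ligands and 14 encode receptors. They were chosen by pig gene symbol (CCL, CXCL, CX3CL, XCL, CCR, CXCR, CX3CR or XCR followed by a digit, leaving out CXCL12) and by a value above 0 in 3 or more of the 12 libraries. RNA came from whole subcutaneous fat of the mid-back of Yorkshire pigs (YK) and Guangdong small-eared pigs (GS), both entered as wild type, at 9 d and 80 d of age. There were 3 libraries in each of the groups YK_9d, GS_9d, YK_80d and GS_80d. The labels enter adipocyte as the cell type although the source is tissue, and do not say whether the samples of a group came from separate animals, so the p-values reflect the variation among these particular samples and part of it may be technical.

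Chemokines are small secreted proteins that bind G protein-coupled receptors on leukocytes and draw the cells along a gradient. Inflammatory chemokines are switched on by cytokines such as tumour necrosis factor and interferon gamma, whereas homeostatic ones are made constantly and place lymphocytes in lymphoid tissue. In fat, adipocytes, stromal cells, endothelium and resident immune cells can all make them, and CCL2 is known for recruiting monocytes into the adipose tissue of obese mice.

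The rule used only the number of libraries with a value above 0. The member nearest the limit was CCR6, above 0 in 3 libraries, and the genes just outside were CCL1, CCL17 and CCL28, each above 0 in 1 library, and CCL27, at 0 in all. CCL11, CCL22 and CCR8 carry a symbol in the supplied table of names but have no row among the counts and were not analysed here. CCL20, CCL24, CXCL13, CXCL16, CX3CL1, CCR2 and CXCR2 have no entry under these symbols in the table of names and were likewise not analysed. Of the 32 members, 31 had enough counts to be tested and CCR6 had not. Its deposited values were 10 in GS_9d replicate 1, 18 in GS_9d replicate 3, 19 in GS_80d replicate 3 and 0 in the rest.

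Levels are in CPM, the count of a gene relative to the total of its library, after scaling with TMM factors, which compare libraries by the bulk of their genes. They are not divided by transcript length, so levels are compared between libraries and not between genes. Library totals ran from 45435480 to 60993349 deposited units, where about 3.78 units stand for 1 sequenced fragment. Adipocyte markers were abundant in all libraries, with a summed level of 9 genes from 12620 CPM in YK_9d replicate 1 to 33830 in GS_9d replicate 2. The summed level of 20 T and NK cell marker genes was 68.2 to 74.6 CPM in YK_9d, 99.4 to 218 in GS_9d, 255 to 741 in YK_80d and 150.3 to 175 in GS_80d. The summed level of 15 monocyte and macrophage markers was 748 to 1016 CPM in YK_9d, 844 to 927 in GS_9d, 249 to 623 in YK_80d and 212 to 430 in GS_80d. In bulk tissue, fewer cells of a type and less RNA per cell cannot be told apart. Skeletal muscle markers (8 genes) stood at 2508 CPM in YK_9d replicate 1, 13350 in GS_9d replicate 3 and 14570 in YK_80d replicate 3, against at most 106 elsewhere.

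The summed level of the 18 ligands was highest in Yorkshire fat at 80 d. The ligands summed to 759, 847 and 1438 CPM in YK_80d replicates 1, 2 and 3, to 169, 283 and 207 CPM in GS_80d, to 368, 242 and 238 CPM in YK_9d and to 345, 223 and 226 CPM in GS_9d. No library of another group reached the lowest YK_80d library. The reads behind that total differed between the 3 libraries. In YK_80d replicate 1, CXCL2 took 57.9% and CCL2 17.4% of the ligand total, and the CXCR3 ligands CXCL9, CXCL10 and CXCL11 together took 2.13%. In replicates 2 and 3 those 3 genes took 26.5% and 39.4%. At 9 d the CXCR3 ligands took 0.172% to 0.358% of the ligand total in YK, against 28.3%, 14.1% and 1.44% in GS replicates 1, 2 and 3.

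**Figure D1:**
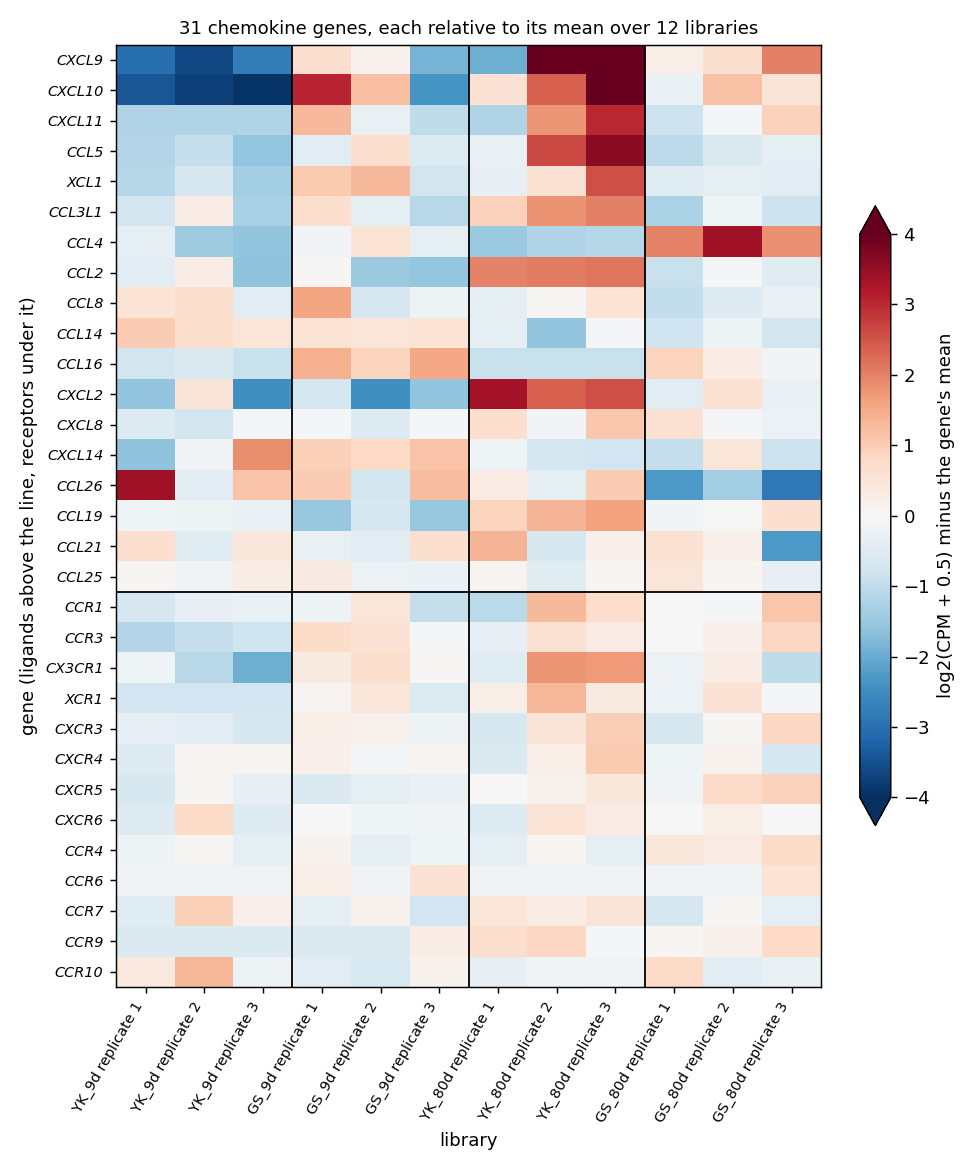
Level of 31 of the 32 genes in the 12 libraries, as log2(CPM + 0.5) minus the gene's mean over the libraries (colour), with black vertical lines between the groups and ligands above the horizontal line. CXCL9, CXCL10 and CCL5 are high in YK_80d replicates 2 and 3, CCL2 and CXCL2 in all 3 YK_80d libraries, and CCL4 in the 3 GS_80d libraries.

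Differences were tested with edgeR's quasi-likelihood test, fitted to all 15425 genes with enough counts and all 12 libraries, with Benjamini-Hochberg adjustment over those genes and a threshold of 0.05. Between the breeds at 80 d, 5 of the 31 chemokine genes passed (16.1%), against 6.12% of all genes tested. CCL16 and CCL4 were higher in GS, where 3.17% of all genes passed in that direction, and CCL2, CCL5 and CCL19 were lower, against 2.95% of all genes. From 9 d to 80 d in YK, CCL2, CCL5 and CCL19 rose and none fell, 3 of 31 (9.68%) against 1.21% of all genes in either direction and 0.81% upward. From 9 d to 80 d in GS, CCL19 and CCL4 rose and none fell, 2 of 31 (6.45%) against 2.65% of all genes and 1.38% upward. By this test no receptor gene passed in any comparison. The comparisons share groups (YK_80d serves both the breed difference at 80 d and the age difference in YK), so their calls are not independent of each other.

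At 9 d no chemokine gene passed between the breeds by edgeR, against 1.02% of all genes. At an unadjusted p under 0.05 there were 12 of 31, against 14.4% of all genes, and DESeq2 called 8 of 31 (5.83% of all genes) and limma-voom 0 (0.778% of all genes). None passed for the interaction, which is the age difference in GS minus that in YK, against 0.0648% of all genes. There 13 of 31 had an unadjusted p under 0.05 (11% of all genes), DESeq2 called 8 (2.38%) and limma-voom 0 (0.0389%). All genes that passed with a negative interaction came to 0.0454% and with a positive one to 0.0194%. The smallest interaction p-values were those of CCL5 (-4.60 ± 1.03, SE) and CXCL10 (-9.94 ± 2.15), both with an edgeR adjusted p of 0.18. CCL5 passed with YK_80d replicate 1 omitted (0.00362), as did CXCL9 (0.0233), and CXCL10 with GS_9d replicate 3 omitted (0.0448).

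In the other comparisons the tools differed in how many members they called. For breed at 80 d, DESeq2 called 9 of 31 (14.3% of all genes) and limma-voom 6 (6.23%), and 10 had an unadjusted p under 0.05 (23.8%). For age in YK, DESeq2 called 15 (5.53%) and limma-voom 3 (0.376%), with 16 at an unadjusted p under 0.05 (13.5%). For age in GS, DESeq2 called 4 (9.5%) and limma-voom 2 (3.19%), with 5 at an unadjusted p under 0.05 (20.0%).

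Counting genes whose 3 libraries of one group all lay above or all below the 3 of the other gave the following. At 9 d, 12 of 31 members did so between the breeds (18.5% of all genes), 11 with GS higher (8.93%) and 1 lower (9.54%). At 80 d, 11 did so (31.4% of all genes), 3 with GS higher (17.1%) and 8 lower (14.4%). From 9 d to 80 d, 13 members did so in YK (15.8% of all genes), 12 upward (7.77%) and 1 downward (8.05%). In GS 8 did so (33.7% of all genes), 5 upward (17.2%) and 3 downward (16.5%), a share of members below that of all genes.

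CXCL9, CXCL10 and CXCL11 are the ligands of CXCR3, the receptor of activated T and NK cells, and are induced by interferon gamma. CXCL9 (ENSSSCG00000032777) stood at 0.520, 0.167 and 0.689 CPM in YK_9d replicates 1, 2 and 3, at 12.6, 8.62 and 1.76 CPM in GS_9d, at 1.62, 169 and 274 CPM in YK_80d, and at 9.27, 12.2 and 32.9 CPM in GS_80d. CXCL10 (ENSSSCG00000032474) stood at 0.428, 0.250 and 0.162 CPM in YK_9d, 82.9, 22.3 and 1.44 CPM in GS_9d, 14.5, 52.1 and 284 CPM in YK_80d, and 7.80, 22.2 and 13.9 CPM in GS_80d. Both genes were lowest in the 3 YK_9d libraries and highest in YK_80d replicate 3. CXCL11 was at 0 in all 3 YK_9d libraries and in YK_80d replicate 1. Elsewhere it stood at 2.36, 0.441 and 0.0717 CPM in GS_9d, at 3.42 and 8.90 CPM in YK_80d replicates 2 and 3, and at 0.145, 0.602 and 1.66 CPM in GS_80d.

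At 9 d the 3 GS libraries lay above the 3 YK libraries for each of the 3 CXCR3 ligands, with replicate 3 of GS closest to YK. For CXCL11 the value in that replicate was 4 deposited units, where about 3.78 units stand for 1 fragment. The log2 difference between GS_9d and YK_9d was 4.05 ± 1.50 for CXCL9 (SE, n = 3 libraries a group; edgeR adjusted p = 0.256) and 6.95 ± 1.68 for CXCL10 (edgeR adjusted p = 0.0940). CXCL11 was at least 13.7-fold higher in GS_9d when the YK_9d group is set to a floor of 3 fragments over its libraries, a bound for counting error only (edgeR adjusted p = 0.191). Without GS_9d replicate 1 the bound was 3.68-fold. By edgeR none of these passed, whereas DESeq2 called all 3 (adjusted p = 0.0262, 4.79e-06 and 0.0023) and limma-voom none (0.788, 0.590 and 0.529). CXCL10 passed in edgeR without GS_9d replicate 3 (adjusted p = 0.0444), where it was closest to the YK libraries.

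From 9 d to 80 d in YK the same genes gave log2 differences of 8.32 ± 1.78 for CXCL9 (edgeR adjusted p = 0.0598) and 8.66 ± 1.79 for CXCL10 (0.0573). CXCL11 was at least 58.9-fold higher at 80 d (edgeR adjusted p = 0.120), or at least 24.5-fold without YK_80d replicate 3. All 3 passed in DESeq2 (1.60e-08, 1.59e-09 and 2.92e-05) and none in limma-voom (0.603, 0.456 and 0.493). All 3 passed in edgeR without YK_80d replicate 1 (adjusted p = 0.00247, 0.0351 and 0.0332). Without YK_80d replicates 2 and 3 the difference was 1.81 for CXCL9 and 5.66 for CXCL10 (0.532 and 0.185), and CXCL11 was at 0 in the YK_80d library that was left. In GS the differences between the ages were 1.24 ± 1.29 for CXCL9 and -1.28 ± 1.27 for CXCL10 (adjusted p = 0.643 and 0.622). At 80 d the groups overlapped: YK_80d replicate 1 lay below all 3 GS_80d libraries for CXCL9, and the difference of -3.03 ± 1.37 did not pass (adjusted p = 0.217) unless YK_80d replicate 1 was omitted (0.0352). Without YK_80d replicates 2 and 3, which have the highest T and NK cell sums (515 and 741 CPM), the CXCL9 difference turned to 3.48 (adjusted p = 0.193) and that of CXCL10 became 0.01 (adjusted p = 1), with a single YK_80d library assumed to vary like the other groups.

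In the supplied RefSeq annotation of Sscrofa11.1, CXCL10 and CXCL11 lie next to each other and both overlap ART3. ART3 stood at 0 CPM in GS_9d replicate 1 and at 0.151 CPM in YK_80d replicate 2, where CXCL10 was at 82.9 and 52.1 CPM, and was highest in GS_9d replicate 3, at 32.04 CPM. IFNG, interferon gamma itself, was at 0 in the 3 YK_9d libraries and in GS_9d replicates 1 and 3, at 0.0766 CPM in GS_9d replicate 2, at 1.77, 3.21 and 6.06 CPM in YK_80d, and at 0.145, 0.491 and 0.0672 CPM in GS_80d. It rose with age in YK, at least 52.8-fold (edgeR adjusted p = 0.0345), and that call held in only 1 of the 6 fits with 1 library omitted.

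Of 17 tested genes of the interferon gamma response, 4 rose from 9 d to 80 d in YK (IFNG, IRF1, PSMB8 and PSMB9) and none fell, against 0.81% of all genes upward, with a median log2 difference of 1.66 against 0 over all genes. PSMB8, a subunit of the immunoproteasome, stood at 30.2 ± 6.57 CPM in YK_9d and 145 ± 42.5 in YK_80d (SD, n = 3; log2 2.26 ± 0.35 SE, edgeR adjusted p = 0.0193). In GS_80d it stood at 41.5 ± 7.01 CPM, below YK_80d (log2 -1.80 ± 0.35, edgeR adjusted p = 0.0127). At 80 d GBP2, PSMB8 and PSMB9 of the list were lower in GS and none higher, against 2.95% of all genes lower, with a median of -1.11 against -0.02 over all genes. At 9 d and for age in GS none of the 17 passed by edgeR, with medians of 0.63 and -0.17, and 5 and 2 had an unadjusted p under 0.05, against 14.4% and 20% of all genes. The T and NK cell sum was likewise highest in the 3 YK_80d libraries (255, 515 and 741 CPM) and lowest in YK_9d, and its part in these differences was not tested.

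**Figure D2:**
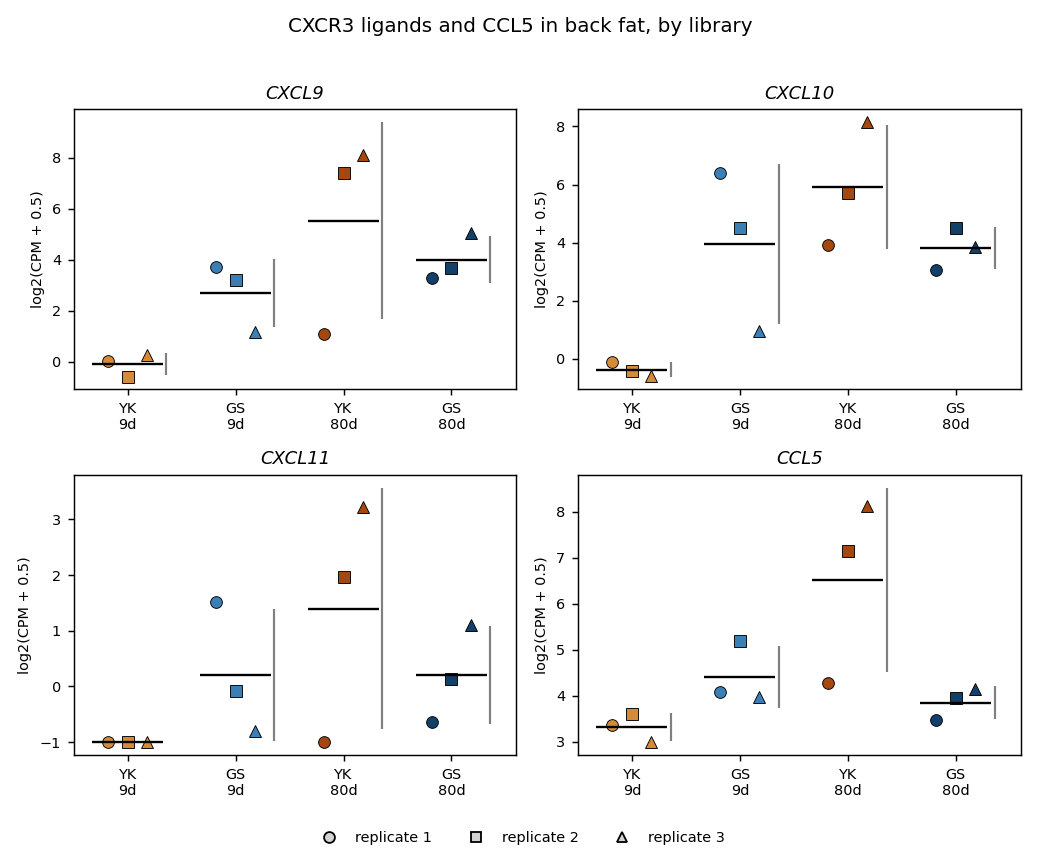
Level of CXCL9, CXCL10, CXCL11 and CCL5 in each library, as log2(CPM + 0.5), by group. Marker shapes are replicate numbers, horizontal bars group means and grey vertical lines 1 SD on either side. YK_80d replicates 2 and 3 are the highest libraries for CXCL9, CXCL11 and CCL5, while YK_80d replicate 1 lies near or below the GS_80d libraries, and the 3 YK_9d libraries are at or near the bottom for the CXCR3 ligands.

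CCL5, which T and NK cells secrete and which acts on CCR1 and CCR3, had the same libraries on top. CCL5 (ENSSSCG00000017705) stood at 9.73, 11.6 and 7.46 CPM in YK_9d, 16.4, 36.1 and 15.1 CPM in GS_9d, 18.9, 142 and 280.5 CPM in YK_80d, and 10.5, 14.9 and 17.3 CPM in GS_80d. Every YK_80d library lay above every GS_80d and every YK_9d library, but replicate 1 by little. It was lower in GS than YK at 80 d by a log2 difference of -3.37 ± 0.76 (SE, n = 3; edgeR adjusted p = 0.0293) and rose in YK by 3.94 ± 0.78 (0.0412). Both passed in DESeq2 (4.63e-06 and 1.04e-07) but neither in limma-voom (0.0664 and 0.123) or in edgeR on the 6 libraries of the comparison alone (0.0928 and 0.18). The breed call at 80 d did not hold when YK_80d replicate 3 was omitted, nor when a GS_80d library was (highest adjusted p 0.121). The age call in YK held only in the fit omitting YK_80d replicate 1 (otherwise at most 0.137). Without YK_80d replicates 2 and 3 the breed difference at 80 d was -0.41 (adjusted p = 0.708) and the age difference in YK 0.98 (0.465).

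XCL1, a ligand of activated lymphocytes, and CCL3L1, a macrophage inflammatory protein, had their highest values in YK_80d as well. XCL1 stood at 0.809, 2.002 and 9.44 CPM there, at 0.689, 0.776 and 0.705 CPM in GS_80d, at 2.88, 3.602 and 0.484 CPM in GS_9d, and at 0.245, 0.563 and 0.142 CPM in YK_9d. CCL3L1 stood at 2.92, 5.84 and 6.85 CPM in YK_80d and at 0.254, 1.11 and 0.520 CPM in GS_80d, with no overlap between those groups, and at 0.243 to 2.41 CPM in the 6 libraries of 9 d. For neither gene did the breed difference at 80 d pass in edgeR (XCL1 -2.49 ± 0.95, adjusted p = 0.134; CCL3L1 -3.04 ± 0.91, adjusted p = 0.0685). Both were past the threshold in DESeq2 (adjusted p = 0.0426 and 0.00539). CCL3L1 also passed in limma-voom (0.0449) and in edgeR on the 6 libraries of the comparison alone (0.0397). XCL1 passed in neither (0.34 and 0.13).

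CCL2, the monocyte chemoattractant that acts on CCR2, was high in all 3 Yorkshire libraries of 80 d and close among them. CCL2 (ENSSSCG00000017723) stood at 23.6, 40.3 and 10.3 CPM in YK_9d, 34.1, 11.3 and 10.9 CPM in GS_9d, 132, 139 and 144 CPM in YK_80d, and 17.2, 31.4 and 23.4 CPM in GS_80d. The lowest YK_80d library lay above the highest of the other 9 libraries. At 80 d CCL2 was lower in GS, by a fitted 5.76-fold (log2 -2.53 ± 0.53 SE, edgeR adjusted p = 0.0194), and from 9 d to 80 d it rose in YK by 5.60-fold (2.48 ± 0.53, 0.0473). The ages in GS differed by 0.36 ± 0.50 (adjusted p = 0.741), and the interaction of -2.13 ± 0.71 did not pass (0.322).

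Without YK_80d replicates 2 and 3 the CCL2 differences were -2.46 for breed at 80 d and 2.42 for age in YK. This left 1 YK_80d library, replicate 1. Its T and NK cell sum was 255 CPM, against 150.3 to 175 in GS_80d and 68.2 to 74.6 in YK_9d. The part of T and NK cells in the CCL2 differences was not tested. The breed call at 80 d did not hold when YK_80d replicate 3 was omitted, nor when a GS_80d library was (at most 0.0957), and the age call in YK held in none of its 6 such fits (at most 0.149). The monocyte and macrophage sum stood at 249, 587 and 623 CPM in YK_80d replicates 1, 2 and 3 and at 248, 212 and 430 CPM in GS_80d, and its part in the CCL2 difference was not tested.

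CXCL2, a neutrophil attractant of the CXC family, had the same order of groups at 80 d. CXCL2 (ENSSSCG00000008959) stood at 14.3, 62.9 and 7.54 CPM in YK_9d, 26.8, 7.59 and 14.4 CPM in GS_9d, 439, 232 and 263 CPM in YK_80d, and 32.4, 67.1 and 35.3 CPM in GS_80d. The 3 YK_80d libraries again lay above all others. The differences of -2.79 ± 0.75 for breed at 80 d (edgeR adjusted p = 0.0546) and 3.46 ± 0.78 for age in YK (0.0595) did not pass in edgeR. They passed in limma-voom and in DESeq2, where the adjusted p was 0.000255 and 6.10e-06. CXCL2 has near-identical relatives, among which its reads may have been split. The age difference passed in edgeR without YK_9d replicate 2, the YK_9d library with the most CXCL2 (adjusted p = 0.0252). CXCL8, interleukin 8, was low throughout, from 0 in YK_9d replicate 2 to 1.26 CPM in YK_80d replicate 3.

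The summed neutrophil markers were not highest in YK_80d, where CXCL2 was. The sum of 9 neutrophil genes was 5.84 to 11.3 CPM in YK_80d and 13.3 to 27.4 in GS_80d. It was 6.83 to 14.9 CPM in GS_9d and 3.99 to 42.4 in YK_9d. Single markers differed: S100A8 stood at 0 to 0.166 CPM in YK_80d and 0 to 1.72 in YK_9d. CSF3R stood at 0.639 to 1.256 CPM in YK_80d, above the 0.162 to 0.396 CPM of YK_9d. The part of neutrophils in the CXCL2 values was not tested. IL6, an inflammatory cytokine, rose with age in both breeds, from 0.503 ± 0.429 to 13.6 ± 6.76 CPM in YK (SD, n = 3; log2 4.75 ± 0.95 SE, edgeR adjusted p = 0.0376) and from 0.254 ± 0.171 to 5.92 ± 5.20 CPM in GS (4.54 ± 0.95, 0.0321). REL, a subunit of NF-kB, rose by 1.51 in both (edgeR adjusted p = 0.0270 in YK and 0.0178 in GS). SOCS3, a feedback inhibitor of cytokine signalling, was lower in GS_80d (32.2 ± 25.7 CPM) than in YK_80d (238 ± 82.1), a log2 difference of -2.89 ± 0.65 (edgeR adjusted p = 0.0286). With a library omitted, these calls held in 0 to 2 of 6 fits each.

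Of 23 tested cytokine and NF-kB regulator genes, IL6 and REL thus rose in YK, IL6 and REL rose and VCAM1, an endothelial adhesion molecule, fell in GS, and SOCS3 alone was lower in GS at 80 d. The shares over all genes were 0.81% upward in YK, 1.38% upward and 1.27% downward in GS, and 2.95% lower at 80 d. None passed for breed at 9 d by edgeR, where 1 had an unadjusted p under 0.05, against 14.4% of all genes. The list's medians were 0.39 (age, YK), 0.10 (age, GS), -0.32 (breed, 80 d) and 0.10 (breed, 9 d), against all-gene medians of 0, 0, -0.02 and 0.01.

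**Figure D3:**
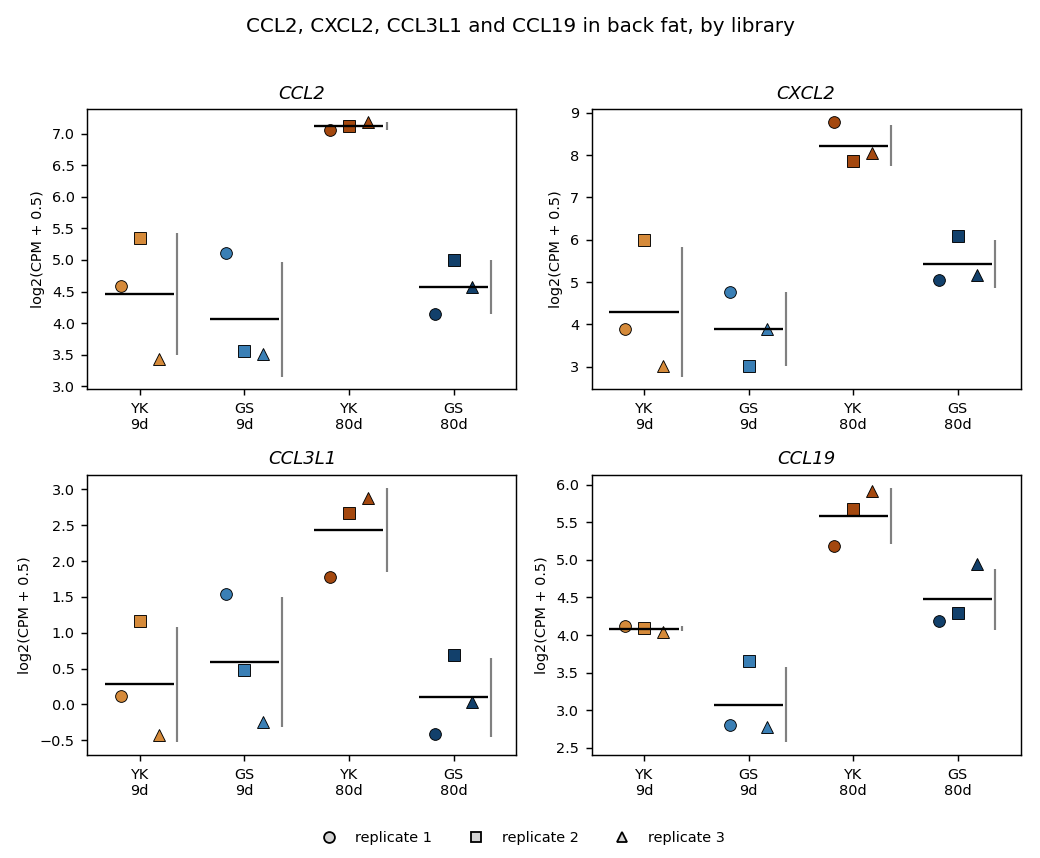
Level of CCL2, CXCL2, CCL3L1 and CCL19 in each library, as log2(CPM + 0.5), by group, with replicates by marker shape, group means as bars and 1 SD on either side as grey lines. The 3 YK_80d libraries lie above all other libraries for each of the 4 genes.

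CCL4 and CCL16 were the 2 ligands that passed as higher in Guangdong small-eared fat at 80 d by edgeR. CCL4, macrophage inflammatory protein 1 beta, attracts monocytes and T cells. CCL4 (ENSSSCG00000032343) stood at 1.27, 0.375 and 0.284 CPM in YK_9d, 1.69, 2.93 and 1.27 CPM in GS_9d, 0.341, 0.521 and 0.559 CPM in YK_80d, and 8.80, 23.5 and 7.81 CPM in GS_80d. GS_80d lay above every other library. At 80 d the fitted difference was 28.1-fold (log2 4.81 ± 0.71 SE, edgeR adjusted p = 0.00373), and it passed whichever single library of the 6 was left out (0.0193 at most). With YK_80d replicates 2 and 3 both omitted it was 5.28 (adjusted p = 0.0683). In GS it rose from 9 d to 80 d by 2.76 ± 0.64 (edgeR adjusted p = 0.0427), a call that held in none of the 6 fits with a library omitted (0.181 at most).

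At 80 d the breeds stood in opposite order for CCL4 and for CCL3L1, which the supplied annotation places next to it, while at 9 d the GS mean was above the YK mean for both. The GS_80d means were 13.4 ± 8.78 CPM for CCL4 and 0.628 ± 0.437 for CCL3L1, and the YK_80d means 0.474 ± 0.117 and 5.20 ± 2.04 (SD, n = 3). Genes of this family have near-identical copies, so how the authors' counting divided reads among them is uncertain for both.

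CCL16, a chemokine that human liver makes in quantity, was detected mostly in GS. CCL16 (ENSSSCG00000040940) stood at 1.97, 1.21 and 2.21 CPM in GS_9d and 1.22, 0.633 and 0.352 CPM in GS_80d, against 0.0612, 0.125 and 0 in YK_9d and 0 in all 3 YK_80d libraries. Every GS library lay above every YK library. At 80 d it was at least 10.01-fold higher in GS (edgeR adjusted p = 0.0218), and the call was lost without YK_80d replicate 3, GS_80d replicate 1 or GS_80d replicate 2 (0.0696 at most). The difference at 9 d, 4.81 ± 1.28, did not pass in edgeR (adjusted p = 0.109) and passed in DESeq2 (0.000784). At these levels the 6 GS libraries hold deposited values of only 21 to 123 units.

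CCL14 lies beside CCL16 in the supplied annotation and did not share its pattern. CCL14, known in humans as a plasma chemokine acting on CCR1, stood at 78.2, 61.1 and 54.3 CPM in YK_9d, 57.0, 55.0 and 57.6 CPM in GS_9d, 30.4, 12.6 and 36.8 CPM in YK_80d, and 22.3, 33.3 and 23.4 CPM in GS_80d. In both breeds all libraries of 9 d lay above all libraries of 80 d. The age differences of -1.28 ± 0.33 in YK and -1.10 ± 0.33 in GS did not pass in edgeR (adjusted p = 0.0850 and 0.0926). They passed in DESeq2 (0.00835 and 0.0235) and not in limma-voom (0.0842 and 0.0795). In edgeR on the 6 libraries of the comparison alone the GS difference passed (0.0214) and the YK difference did not (0.261). The breeds differed by -0.19 at 9 d and -0.01 at 80 d. CCL8, a second monocyte attractant, ran from 0.562 to 5.74 CPM with overlap between all groups.

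CCL26, an eotaxin that acts on CCR3 in humans, was lowest in GS_80d. CCL26 stood at 188, 12.6 and 38.9 CPM in YK_9d, 35.2, 10.3 and 41.2 CPM in GS_9d, 22.1, 13.04 and 35.7 CPM in YK_80d, and 3.10, 6.27 and 1.95 CPM in GS_80d, so that every GS_80d library lay below all the others. The differences of -2.64 ± 0.94 between the breeds at 80 d and -2.93 ± 0.95 between the ages in GS did not pass (edgeR adjusted p = 0.123 and 0.127). They passed in DESeq2 (0.0257 and 0.0170) and in edgeR on the 6 libraries of the comparison alone (0.0318 and 0.0479), and not in limma-voom (0.210 and 0.203). YK_9d replicate 1, the highest at 188 CPM, is 1 of the 3 libraries with skeletal muscle transcripts (2508 CPM), and the other 2 stood at 41.2 and 35.7 CPM. The part of muscle in the CCL26 values was not tested.

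**Figure D4:**
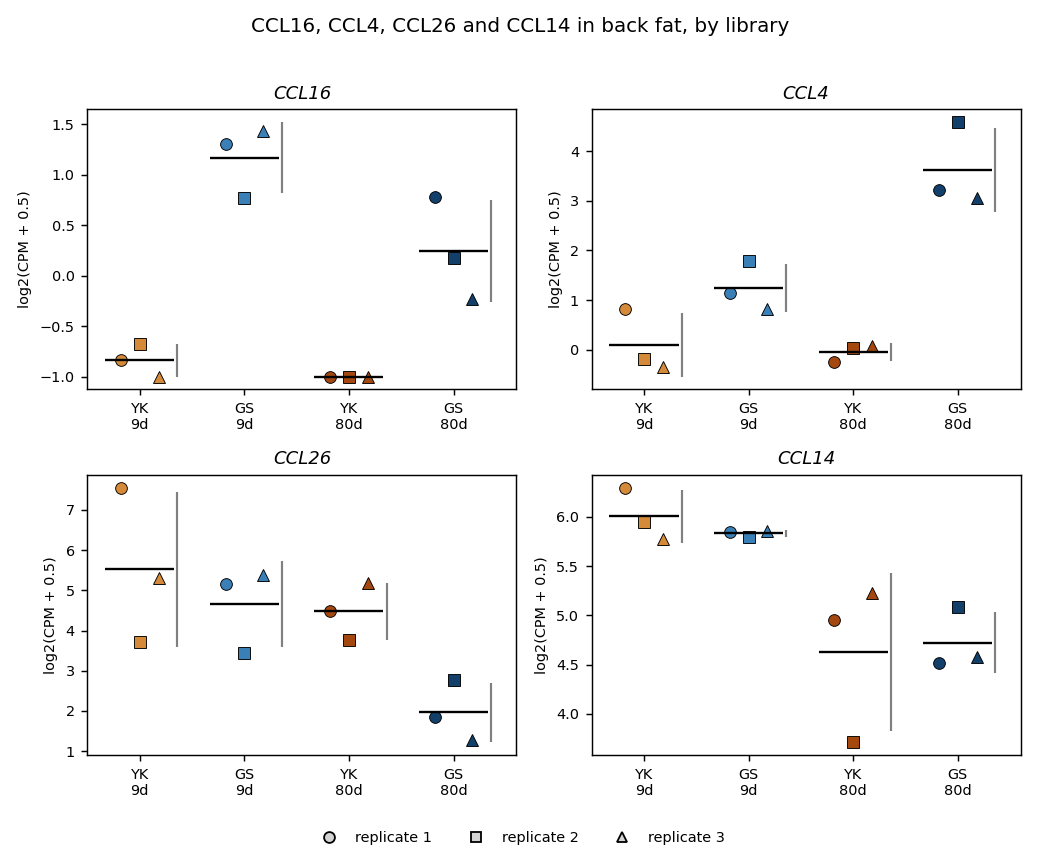
Level of CCL16, CCL4, CCL26 and CCL14 in each library, as log2(CPM + 0.5), by group, with replicates by marker shape, group means as bars and 1 SD on either side as grey lines. CCL16 is near the bottom of its axis in all 6 YK libraries, CCL4 is highest and CCL26 lowest in the 3 GS_80d libraries, and CCL14 is higher at 9 d than at 80 d in both breeds.

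CCL19 and CCL21 are the homeostatic ligands of CCR7 that guide T cells and dendritic cells to lymphoid tissue, and CCL19 was the only chemokine gene past the threshold in 3 comparisons. CCL19 (ENSSSCG00000010966) stood at 16.9, 16.6 and 16.01 CPM in YK_9d, 6.46, 12.1 and 6.35 CPM in GS_9d, 35.8, 50.5 and 59.8 CPM in YK_80d, and 17.7, 19.1 and 30.3 CPM in GS_80d. The groups fell in the order YK_80d, GS_80d, YK_9d and GS_9d, with no overlap between neighbours, although the lowest GS_80d library (17.7) was close to the highest YK_9d library (16.9). CCL19 rose with age by 1.56 ± 0.31 in YK (SE, n = 3; edgeR adjusted p = 0.0345) and by 1.43 ± 0.31 in GS (0.0326). At 80 d it was lower in GS by -1.12 ± 0.30 (edgeR adjusted p = 0.0478), and at 9 d the difference was -0.99 ± 0.30 (0.145). The 9 d difference passed in DESeq2 (0.0458) and not in limma-voom (0.165). The interaction was -0.13 (adjusted p = 0.952).

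Each of the 3 CCL19 calls held in 1 of 6 fits with a library omitted: that omitting YK_80d replicate 1 for the 80 d breed and YK age calls, and that omitting GS_9d replicate 2 for the GS age call. The log2 differences in these fits were 1.39 to 1.74 for age in YK, 1.17 to 1.80 for age in GS and -1.41 to -0.95 for breed at 80 d (adjusted p 0.181 at most). Without YK_80d replicates 2 and 3, the CCL19 differences were 1.12 for age in YK and -0.68 for breed at 80 d. Replicate 1 was then the only YK_80d library. The omitted libraries have the highest T and NK cell sums, whose part in the CCL19 differences was not tested. CCL21 did not move with CCL19. It stood at 22.8, 9.99 and 19.5 CPM in YK_9d, 11.6, 10.5 and 22.3 CPM in GS_9d, 37.2, 8.98 and 16.5 CPM in YK_80d, and 22.0, 16.4 and 2.52 CPM in GS_80d, with overlap between all groups. CCL25, the ligand of CCR9, had the smallest ratio of highest to lowest library among members above 0 in all 12 (2.21-fold, from 1.63 to 3.61 CPM).

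CXCL14, a chemokine made constitutively by epithelium, varied widely among the YK_9d libraries. Its lowest and highest libraries were both of YK_9d, at 6.65 and 77.7 CPM, and the third stood at 19.1 CPM. In GS_9d the values were 41.8, 36.8 and 47.1 CPM, above the 12.1 to 18.6 CPM of YK_80d and the 10.7 to 29.8 CPM of GS_80d. YK_9d replicate 3 also had the highest sum of 9 keratinocyte and skin markers, 73.5 CPM, against 8.44 CPM in replicate 1, and the part of skin in the CXCL14 value was not tested. The age difference in GS was -1.27 (edgeR adjusted p = 0.346).

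Among receptors, several were lowest in YK_9d. CCR3, the eotaxin receptor of eosinophils, stood at 0.979, 1.25 and 1.42 CPM in YK_9d and at 2.17 to 5.42 CPM in the other 9 libraries. The GS_9d values were 5.04, 4.45 and 2.71 CPM, a log2 difference of 1.74 ± 0.45 from YK_9d that did not pass in edgeR (adjusted p = 0.0899) and passed in DESeq2 (0.00561). CX3CR1, the fractalkine receptor of monocytes and NK cells, stood at 15.3 and 14.8 CPM in YK_80d replicates 2 and 3 and at 0.709 to 7.13 CPM elsewhere, 2.85 CPM in YK_80d replicate 1 included, and its age difference in YK of 2.45 ± 0.69 did not pass in edgeR (adjusted p = 0.115). That difference passed in DESeq2 (0.00846) and in edgeR without YK_80d replicate 1 (0.0388), and without replicates 2 and 3 it was 0.50 (0.860). CCR1 stood at 6.71 and 4.28 CPM in those same 2 libraries, at 0.894 CPM in replicate 1, and at 1.02 to 5.79 CPM in the other groups.

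XCR1, the XCL1 receptor of cross-presenting dendritic cells, was at 0 in all 3 YK_9d libraries. It stood at 0.402, 0.690 and 0.0717 CPM in GS_9d, 0.490, 1.63 and 0.580 CPM in YK_80d, and 0.218, 0.760 and 0.302 CPM in GS_80d. The bounds were at least 5.56-fold higher in GS_9d and at least 12.9-fold higher in YK_80d than in YK_9d, with edgeR adjusted p = 0.0763 and 0.0508. Both differences passed in DESeq2 (0.00192 and 8.67e-05) and neither in limma-voom (0.165 and 0.0816). Without replicate 2 of the higher group the bounds were 3.39-fold and 7.67-fold. In the supplied annotation XCR1 overlaps CCR1, so reads of the pair may not have been told apart. CXCR3, the receptor of the interferon-induced ligands, reached 1.03 CPM at most, in YK_80d replicate 3, and was at 0 in YK_9d replicate 3, YK_80d replicate 1 and GS_80d replicate 1.

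CXCR4, the receptor of CXCL12, stood at 4.42 to 16.1 CPM over the 12 libraries with its highest value in YK_80d replicate 3, and its groups overlapped in every comparison. CXCR5, the B cell follicle receptor, stood at 0.402 to 0.628 CPM in GS_9d and 0.726 to 2.05 CPM in GS_80d, a log2 difference of 1.55 ± 0.71 (edgeR adjusted p = 0.249). In the same order, the sum of 10 B cell markers was 14.1 to 23.9 CPM and 38.3 to 64.8 CPM, but the B cell marker CD79B stood at 0.279, 0.441 and 1.11 CPM and at 0, 0.808 and 0.0672 CPM. CXCR5 overlaps BCL9L in the supplied annotation, and BCL9L stood at 121.6 to 139.6 CPM in GS_9d and at 192.6 to 221.9 CPM in GS_80d. The part of either in the CXCR5 difference was not tested. CCR7 stood at 0.502 to 2.81 CPM, CCR10 at 0.421 to 3.06 CPM, CXCR6 at 0 to 0.709 CPM, CCR4 at 0 to 0.604 CPM and CCR9 at 0 to 0.824 CPM. CCR9 was at 0 in the 3 YK_9d libraries and in GS_9d replicates 1 and 2, and above 0 in all 6 libraries of 80 d.

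**Figure D5:**
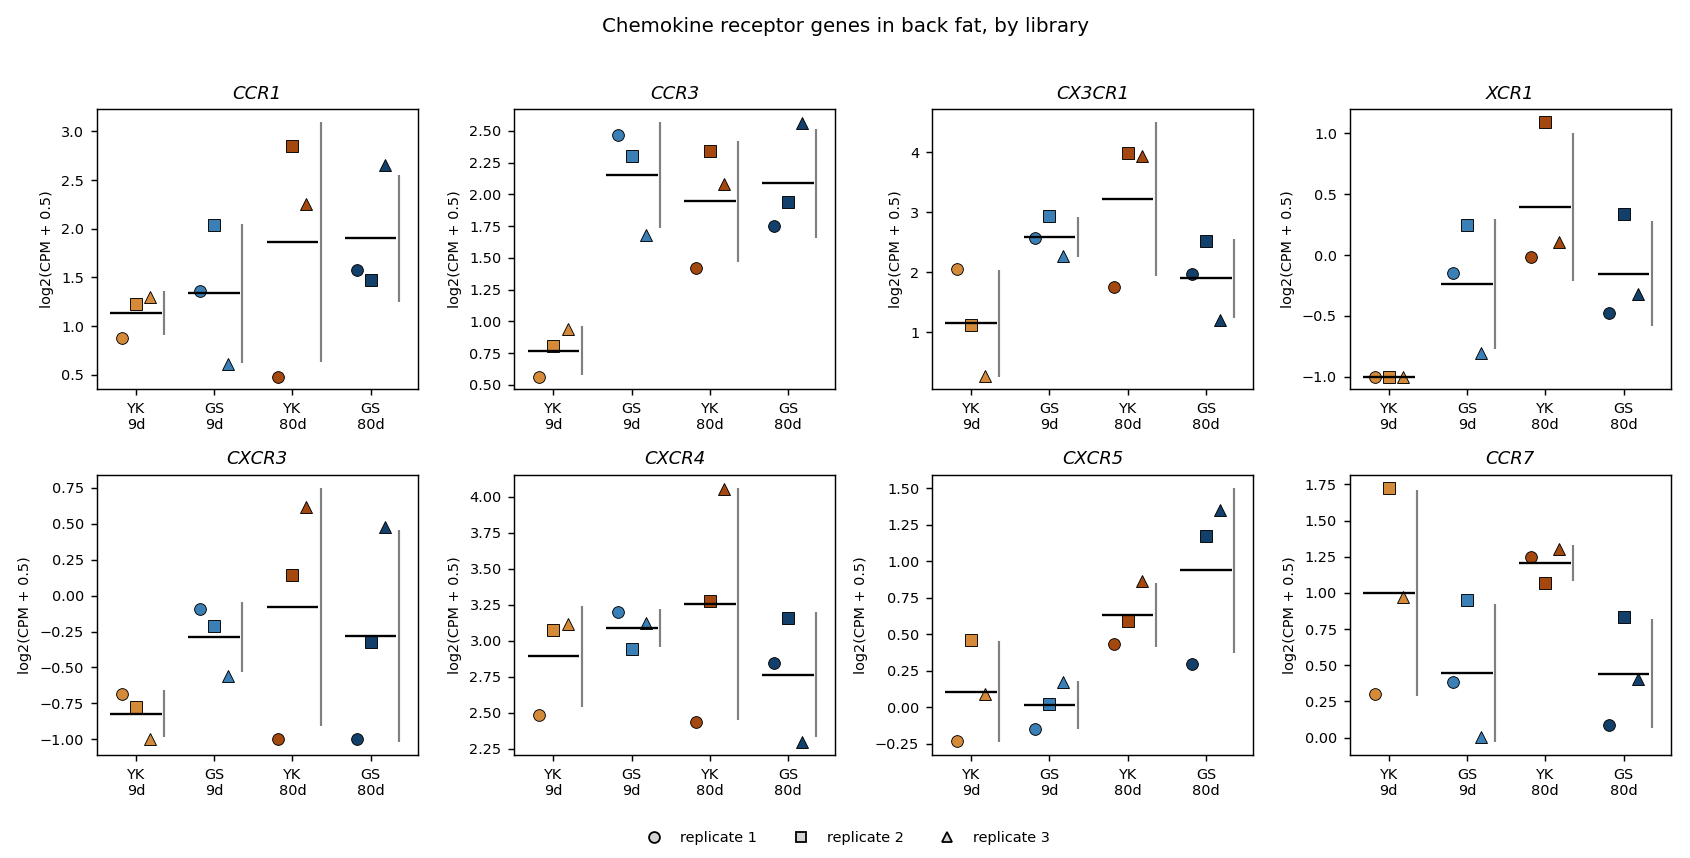
Level of 8 chemokine receptor genes in each library, as log2(CPM + 0.5), by group, with replicates by marker shape, group means as bars and 1 SD on either side as grey lines. CCR3 and XCR1 are lowest in the 3 YK_9d libraries, and CX3CR1 is highest in YK_80d replicates 2 and 3. By edgeR, fitted to the deposited counts of all 12 libraries, no receptor passed the threshold in any comparison. DESeq2 called CCR3 and XCR1 between the breeds at 9 d, among other receptor calls.

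Atypical chemokine receptors bind chemokines without signalling through G proteins and scavenge or transport them. Of 6 such genes only ACKR1, which carries chemokines across venular endothelium, passed by edgeR in any comparison. It rose with age in both breeds, against 0.81% of all genes upward in YK and 1.38% in GS. ACKR1 stood at 28.8, 31.1 and 23.0 CPM in YK_9d, 20.9, 18.9 and 26.9 CPM in GS_9d, 59.6, 63.8 and 59.2 CPM in YK_80d, and 40.3, 55.0 and 46.3 CPM in GS_80d. The ages did not overlap in either breed, and the log2 differences were 1.14 ± 0.20 in YK (SE, n = 3; edgeR adjusted p = 0.0256) and 1.09 ± 0.20 in GS (0.0180). With a library omitted they held in 1 and 2 of 6 fits (at most 0.0813 and 0.0786). The summed level of 10 endothelial markers was 1548 to 2910 CPM in YK_80d and 1726 to 2491 CPM in YK_9d, overlapping between the ages.

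Of 38 tested genes of chemokine receptor signalling, 5 rose from 9 d to 80 d in YK and none fell, against 0.81% of all genes upward. Among them were PLCB2, RGS2 and RGS16. RGS proteins shut off G proteins. RGS16 stood at 42.7 ± 18.4 CPM in YK_9d, 18.7 ± 2.49 in GS_9d, 262 ± 58.1 in YK_80d and 42.0 ± 22.5 in GS_80d (SD, n = 3). It was lower in GS at 80 d by -2.64 ± 0.42 (edgeR adjusted p = 0.00592), a call that held in 6 of 6 fits with a library omitted. GRK3, a kinase that desensitises receptors, was higher in GS at 80 d (128 ± 20.7 against 27.2 ± 15.9 CPM; log2 2.23 ± 0.42, edgeR adjusted p = 0.0119), while RGS2, RGS16 and ARRB2 were lower, against 3.17% of all genes higher and 2.95% lower. None of the 38 passed for breed at 9 d or for age in GS by edgeR, where 8 and 10 had an unadjusted p under 0.05, against 14.4% and 20% of all genes. The medians were 0.25 for age in YK and -0.47 for breed at 80 d.

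Replicate libraries differed more in these genes than in most. The SD of log2 CPM within groups had a median of 0.98 over the 31 tested members (1.04 over ligands and 0.95 over receptors), against 0.44 over all genes tested. The genes were not matched by level. Several members had a mean log2 CPM under 0 (CCR4 -2.97, CCR9 -2.57), and the part of low counts in the SD was not tested. It was largest for CXCL11 (2.53), CXCL9 (2.27) and CXCL10 (1.90) and smallest for CCL19 (0.39) and CCL25 (0.40). The median log2 difference over the tested members was 1.52 (age, YK), -0.89 (breed, 80 d), 0.39 (breed, 9 d) and 0.08 (age, GS), with all-gene medians within 0.02 of 0.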

How the data were processed

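The authors deposited 1 table of estimated counts per gene with pig Ensembl IDs, unscaled between libraries. Libraries came from TRIzol RNA and a stranded KAPA kit, per the labels' protocols. The sources used here name no aligner, counter or annotation. A mouse build, mm10, is the sole entry in the submitters' processing notes, so no coordinates are printed. Low values recur at multiples of about 3.78, taken as the units that 1 fragment adds. Symbols came from the supplied table and name 14692 genes.

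Genes kept by filterByExpr (15425) were fitted in edgeR 4.0.16 (R 4.3.3, limma 3.58.1, DESeq2 1.42.0) with TMM scaling, 4 groups, robust dispersions and 8 residual degrees of freedom. Tests were two-sided. SEs are the log2 difference divided by the square root of F. The procedure was tested on simulated data.

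Members and lists were chosen with earlier results of these data known. Full values were to be given for members past the threshold, the 4 with the highest mean CPM, and the 2 with the smallest p where none passed. Others are given as ranges or were picked by their values. Alternatives were other scaling, filters, tools, subsets of libraries and a replicate block. The bounds with a library omitted were added after seeing the data. No pair of libraries within a group was as close as sampling noise (chi-square per degree of freedom at least 35.2). No sequences were used here. Some results are not reported here.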

Additional observations from a re-analysis of the deposited data

Results flagged for a closer look

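RGS2, a regulator of G protein signalling outside the chemokine genes, was flagged because its age difference differed between the breeds: it stood at 13.2 ± 3.83 CPM in YK_9d, 54.7 ± 11.5 in YK_80d, 28.2 ± 2.07 in GS_9d and 24.3 ± 4.61 in GS_80d (SD, n = 3), an interaction of -2.26 ± 0.36 (edgeR adjusted p = 0.0493), which passed in 3 of 12 fits without 1 library. No chemokine gene was flagged.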

How the results depend on the processing

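The counts of chemokine genes past the threshold were 0 for breed at 9 d, 5 for breed at 80 d, 3 for age in YK, 2 for age in GS and 0 for the interaction. Over all genes tested they were 157, 944, 186, 409 and 10 in that order. Both sets of counts depended on single libraries, and the cause was not tested. Leaving out 1 library gave 0 to 1, 1 to 6, 0 to 7, 0 to 1 and 0 to 2 chemokine genes. The same fits gave 5 to 304, 254 to 953, 28 to 241, 83 to 127 and 5 to 94 over all genes. DESeq2 gave 8, 9, 15, 4 and 8 chemokine genes (900, 2202, 853, 1465 and 367 over all genes). Without the 3 libraries with muscle transcripts the chemokine counts were 1, 1, 1, 0 and 1. All genes then gave 38, 290, 50, 154 and 15. Omitting YK_80d replicates 2 and 3 gave 0 for the 80 d breed count and 0 for the YK age count, and omitting YK_9d replicates 2 and 3 gave 0 for the latter. For age in YK, no filter on low counts gave 1 (163 over all genes), division to fragments 6 (254) and the 6 libraries alone 0 (45). For age in GS the 6 libraries alone gave 4 (1007 over all genes). The labels do not say whether same-numbered libraries were paired (their deviations correlated at -0.251 to 0.211). With the replicate block the chemokine count was 1 for age in GS, 0 for age in YK and 4 for breed at 80 d. Over all genes that fit gave 320, 65 and 808. Limma-voom and other size factors moved no chemokine count past 1.5 times. Directions that turned included CXCL2 at 9 d without YK_9d replicate 2 (0.57) or without YK_9d replicates 2 and 3 (0.18). That of CCL2 at 9 d turned without YK_9d replicate 2 (0.15). At 80 d, without YK_80d replicates 2 and 3, CXCL9 (3.48) turned, as did CCR1 (1.97), CX3CR1 (0.29) and CXCR4 (0.40), among others. With single libraries omitted, these 9 d differences ran from -1.36 to 0.57 for CXCL2 and from -1.155 to 0.15 for CCL2. Members under about 1 CPM rest on few fragments. Among others this limits CCL16, CXCL8, XCR1, CXCR3, CXCR6, CCR4, CCR6 and CCR9, CXCL11 at 9 d and CCL4 in YK_80d.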
